A study of Mus musculus with 16 samples.

Results

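The genes described here encode the LPS receptor complex and the first relay of proteins behind it. They are Tlr4, Tlr2, Cd14, Ly96, Myd88, Ticam1, Irak4, Irak2, Irak3 and Traf6. The genes were chosen by name, and all 10 are among the 9614 genes of the table. Levels were measured by RNA-seq of polyadenylated RNA in bone-marrow-derived macrophages (BMDM), which are grown from marrow cells of C57BL/6 males, aged 8 weeks in the labels. Every animal carried LysM-Cre, a recombinase driven by a myeloid promoter. The wild type (WT, LysM-Cre:NELF-B wt/wt) had intact Nelfb alleles and the knockout (KO, LysM-Cre:NELF-B fl/fl) had floxed alleles of Nelfb, which encodes a subunit of the negative elongation factor that holds RNA polymerase II near the start of genes. BMDM were left untreated (n = 2 per genotype), treated with 10 ng/ml LPS (n = 3 per genotype) or with 10 ng/ml LPS and 100 nM of the synthetic glucocorticoid dexamethasone (Dex, n = 3 per genotype), for 1 hr. Each genotype has 3 animals, here lettered A to C, and untreated libraries were analysed for animals A and B. Deletion in these cells is limited to those in which Cre was active before harvest, and RNA of a whole culture cannot tell fewer expressing cells from less RNA per cell.

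TLR4 is the receptor for bacterial LPS. CD14 hands LPS to the receptor, and MD-2, encoded by Ly96, forms the LPS-binding pocket with it. TLR2 senses bacterial lipoproteins and also uses CD14. Signals then pass through the adaptor MyD88, which gathers the IRAK kinases and the ubiquitin ligase TRAF6 and leads to NF-kB, and through the adaptor TRIF, encoded by Ticam1, which leads to interferon genes as well.

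Values are log2 CPM, the reads of a gene scaled to the size of its library, and differences are log2 differences. A gene is said to be called, or to have risen or fallen, at an adjusted p under 0.05 in limma over all 9614 genes. The libraries held 2.5031e+07 to 4.97353e+07 reads as recovered from the values. Nelfb was lower in every KO library (3.27 to 4.38) than in every WT library (5.59 to 6.21), and the difference with LPS was -2.02 (SE 0.28, adjusted p = 0.0111 in limma). Of 8 macrophage markers, 7 are in the table, from Lyz2, the lowest, at 4.30 to 6.33 to Csf1r, the highest, at 11.36 to 11.93. Adgre1 is not analysed here. Of the neutrophil markers only S100a8 (2.45 to 5.38) and of the B cell markers only Cd79b (3.75 to 5.31) were in the table, with 3 of 4 fibroblast markers at 3.89 to 5.91 and 0 of the 11 T and NK cell, dendritic cell and mast cell markers. The untreated library of WT animal A stood apart. Its correlation with the other libraries across genes was 0.830 to 0.909, its summed macrophage markers were 5943 CPM against 6529 to 7753 CPM in the other 15 libraries, although Cd68 alone was the highest there (10.89 against 10.03 to 10.65). Its summed fibroblast markers were 46.9 CPM against 60.9 to 138 CPM, and it was the lowest of the 16 libraries for 6 of the 10 genes and for 35.0% of all genes. Why it stood apart was not tested, and several values of the LPS and genotype comparisons are given with and without it.

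**Figure D1:**
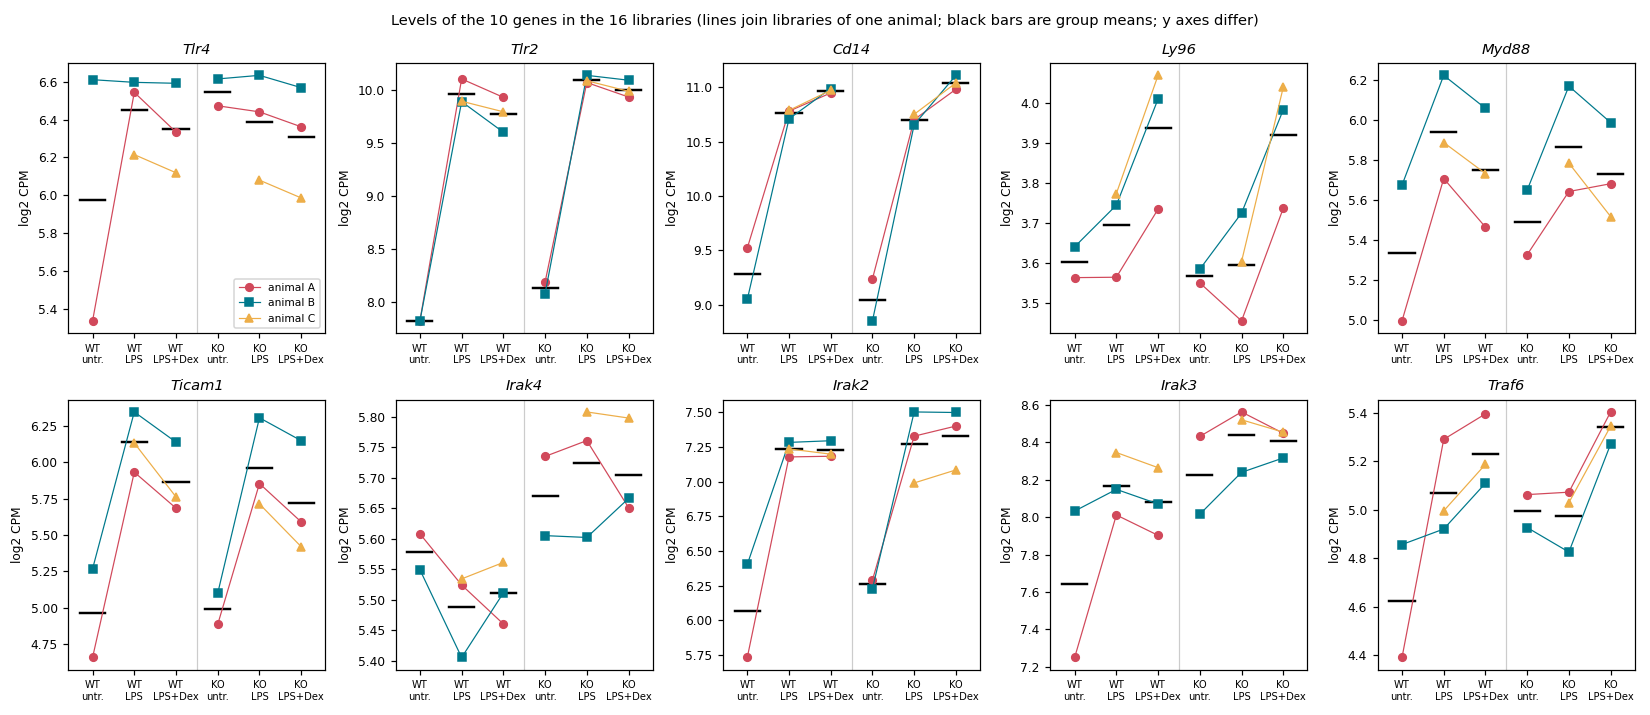
Log2 CPM (y axis) of each of the 10 genes in the 6 groups (x axis), with 1 point per library, lines between libraries of the same animal and black bars at group means. In both genotypes the LPS libraries of Tlr2, Cd14, Ticam1 and Irak2 all sat above the untreated ones (25.5% of all genes did not overlap in the WT and 25.8% in the KO), and the untreated WT point of animal A was the lowest for Tlr4, Myd88, Ticam1, Irak2, Irak3 and Traf6.

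Levels were first set against each other per kb of exon. With LPS in the WT, Cd14 was the highest at 9.97 ± 0.043 log2 CPM per kb (SD, n = 3), followed by Tlr2 (8.37 ± 0.12), Irak3 (6.29 ± 0.17) and Irak2 (5.09 ± 0.053). Myd88 (4.57 ± 0.26) and Ticam1 (4.55 ± 0.21) overlapped, as did Tlr4 (3.98 ± 0.21) and Ly96 (3.66 ± 0.11). Irak4 (3.16 ± 0.072) and Traf6 (2.09 ± 0.20) came last, each below the gene before it in every library. Per length, the receptor gene Tlr4 and its partner Ly96 thus ranked below the coreceptor gene Cd14, the adaptor genes and 2 of the 3 Irak genes. In untreated cells Cd14 (8.49 ± 0.33 in the WT and 8.25 ± 0.27 in the KO, n = 2 each) was again above the others in every library, while in the WT each of Myd88, Irak2, Ly96, Tlr4, Ticam1 and Irak4, in this order by mean, overlapped with the next. In untreated KO cells Tlr2 (6.54 ± 0.078) and Irak3 (6.35 ± 0.29) overlapped as well. In all 6 groups the order by mean began with Cd14, Tlr2 and Irak3 and ended with Traf6.

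**Figure D2:**
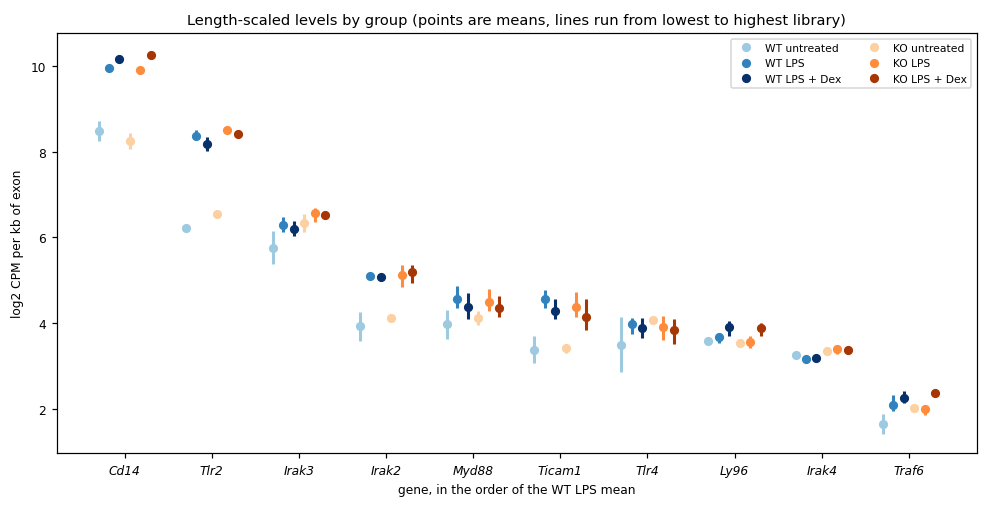
Level per kb of exon (y axis, log2 CPM per kb) of the 10 genes (x axis, in the order of the WT LPS mean) in the 6 groups, with points at group means and lines from the lowest to the highest library. Cd14 lies at 9.97 and Traf6 at 2.09 in the WT with LPS, and the Tlr2 and Irak2 points of both genotypes separate untreated from LPS libraries.

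The first comparison asked which parts of the LPS sensing machinery moved within 1 hr of LPS. In the WT, Tlr2, Cd14, Ticam1 and Irak2 rose, that is 4 of the 10 genes against 6.91% of all genes called, and 0 fell. In the KO, Tlr2, Cd14 and Irak2 rose, 3 of 10 against 4.01% of all genes. The 10 genes had a median difference of 0.57 (WT) and 0.30 (KO), beside 0.02 and -0.01 over all genes. Without the untreated library of WT animal A the WT median was 0.24, beside 0.02 over all genes.

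Tlr2 (GRCm38 chromosome 3, 83836272 to 83841767, minus strand) showed the largest difference of the 10 in both genotypes. It stood at 7.82 and 7.82 in the untreated WT libraries of animals A and B, and at 10.11, 9.89 and 9.90 with LPS in animals A, B and C. In the KO it went from 8.19 and 8.07 to 10.07, 10.14 and 10.09. The groups did not overlap, and the same-animal differences in animals A and B were 1.89 to 2.29. The fit put the rise at 2.15 in the WT (SE 0.12, 4.43-fold, adjusted p = 6.75e-08 in limma) and 1.97 in the KO (SE 0.12, 3.92-fold, adjusted p = 1.24e-07 in limma).

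Tlr4 (chromosome 4, 66827584 to 66930284, plus strand) was not called. Its untreated values were 5.34 and 6.61 in WT animals A and B and 6.47 and 6.62 in KO animals A and B. With LPS it was at 6.54, 6.60 and 6.22 in the WT and at 6.44, 6.63 and 6.08 in the KO. Except for the untreated WT library of animal A, all values lay between 5.99 and 6.63, and treatment separated no group from another. The same-animal LPS difference was 1.21 in WT animal A and -0.01, -0.03 and 0.02 in the other 3 animals. The fitted difference in the WT was 0.48 (95% confidence interval -0.18 to 1.14, adjusted p = 0.299 in limma), and without the untreated library of animal A it was -0.16 (-0.72 to 0.40, adjusted p = 0.827 in limma). In the KO it was -0.16 (-0.82 to 0.50).

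Cd14 (chromosome 18, 36725067 to 36726798, minus strand), the coreceptor shared by both receptors, rose from 9.52 and 9.05 to 10.78, 10.71 and 10.79 in the WT. In the KO it rose from 9.24 and 8.85 to 10.70, 10.66 and 10.75. The LPS libraries spanned a narrow range (SD 0.043 and 0.048) well above the untreated ones. LPS minus untreated came to 1.47 in the WT (SE 0.14, 2.78-fold, adjusted p = 1.79e-05 in limma) and 1.66 in the KO (SE 0.14, 3.16-fold, adjusted p = 5.52e-06 in limma).

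Ly96 (chromosome 1, 16688051 to 16709611, plus strand), which encodes the partner of TLR4, was not called either. It was at 3.56 and 3.64 untreated and at 3.56, 3.74 and 3.77 with LPS in the WT, and at 3.55 and 3.58 against 3.46, 3.72 and 3.60 in the KO. The groups overlapped in both genotypes. The differences were 0.09 (95% confidence interval -0.21 to 0.40) and 0.03 (-0.28 to 0.33).

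The adaptors came next. Ticam1 (chromosome 17, 56269319 to 56276786, minus strand), which encodes TRIF, went from 4.66 and 5.27 to 5.93, 6.34 and 6.13 in the WT and from 4.89 and 5.10 to 5.85, 6.30 and 5.71 in the KO. The groups did not overlap, and the same-animal differences were 1.27 and 1.08 in WT animals A and B and 0.97 and 1.20 in KO animals A and B. The fitted difference was called in the WT (1.17, SE 0.25, 2.25-fold, adjusted p = 0.0125 in limma) and missed the threshold in the KO (0.96, SE 0.25, 1.95-fold, adjusted p = 0.0534 in limma). The calls of both genotypes turned around without the untreated library of WT animal A, with adjusted p = 0.177 in the WT (0.87) and adjusted p = 0.0271 in the KO (0.96), both in limma. Without the LPS + Dex library of KO animal B the KO difference was also called (adjusted p = 0.0295 in limma).

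Myd88 (chromosome 9, 119335934 to 119341411, minus strand) was at 4.99 and 5.67 untreated and 5.71, 6.22 and 5.89 with LPS in the WT. In the KO it was at 5.32 and 5.65 untreated and 5.64, 6.17 and 5.78 with LPS. Animal B was the highest and animal A the lowest of the LPS libraries in both genotypes. The WT groups did not overlap and the KO groups did. Within animals the LPS library was higher in 4 of 4, by 0.32 to 0.71, where 40.6% of all genes kept 1 sign in the 4 animals. The fitted differences were 0.60 in the WT (adjusted p = 0.146 in limma; 0.27 without the untreated library of animal A, adjusted p = 0.740) and 0.38 in the KO (adjusted p = 1.00 in limma).

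Of the IRAK family, Irak4 encodes the kinase that acts first, Irak2 one that prolongs the signal, and Irak3 encodes IRAK-M, a member that restrains it. Irak2 (chromosome 6, 113638467 to 113695026, plus strand) went from 5.73 and 6.40 to 7.18, 7.28 and 7.24 in the WT and from 6.29 and 6.23 to 7.33, 7.50 and 6.99 in the KO. No LPS library reached down to an untreated one. Irak2 rose by 1.17 in the WT (SE 0.19, 2.25-fold, adjusted p = 0.00165 in limma) and 1.02 in the KO (SE 0.19, 2.02-fold, adjusted p = 0.00571 in limma). Without the untreated library of WT animal A the WT rise was 0.83 (SE 0.18, adjusted p = 0.0213 in limma). The KO call was lost without the untreated library of KO animal A (adjusted p = 0.0544 in limma) or B (adjusted p = 0.0757 in limma).

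Irak4 (chromosome 15, 94543643 to 94581815, plus strand) had the narrowest range of the 10 genes. It ran from 5.40 to 5.81 over the 16 libraries, and its LPS difference was -0.09 (95% confidence interval -0.31 to 0.13) in the WT and 0.05 (-0.17 to 0.27) in the KO. In the WT its LPS libraries (5.40 to 5.53) all lay below the untreated ones (5.55 and 5.61), where 25.5% of all genes did not overlap. The KO groups overlapped. Irak3 (chromosome 10, 120141648 to 120202130, minus strand) was at 7.25 and 8.03 untreated and 8.01, 8.15 and 8.35 with LPS in the WT. In the KO it was at 8.43 and 8.02 against 8.56, 8.24 and 8.52. Its groups overlapped, although the LPS library was the higher in 4 of 4 animals, by 0.76 in WT animal A and 0.12 to 0.22 in the others. Its fitted difference was not called in the WT (0.53, adjusted p = 0.138 in limma, and 0.14 without the untreated library of animal A, adjusted p = 0.810) or the KO (0.22, adjusted p = 1.00 in limma).

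Traf6 (chromosome 2, 101678429 to 101701669, plus strand), the ubiquitin ligase behind the IRAK kinases, was at 4.39 and 4.86 untreated and 5.29, 4.92 and 5.00 with LPS in the WT. In the KO it was at 5.06 and 4.93 against 5.07, 4.83 and 5.03. The WT groups did not overlap, as was so for 25.5% of all genes, and the KO groups did. Its same-animal difference was 0.90 in WT animal A and 0.06, 0.01 and -0.10 in the other 3 animals. The fitted difference was 0.45 in the WT (adjusted p = 0.106 in limma), 0.21 without the untreated library of animal A (adjusted p = 0.672 in limma) and -0.02 in the KO (adjusted p = 1.00 in limma).

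Between untreated and LPS libraries of the same animal, deviations from group means correlated across genes at 0.185 and 0.561 in the WT and 0.738 and 0.822 in the KO. The untreated library of WT animal A, at 0.185, correlated more with the LPS library of animal C (0.481). With 2 untreated libraries per genotype, whose deviations mirror each other, these values say little about the pairing. The LPS comparison was also made within animals, with the animal as a block. Tlr2, Cd14, Myd88, Ticam1 and Irak2 were then called as higher in both genotypes, 5 of 10 genes beside 13.8% of all genes in the WT and 7.32% in the KO. Myd88 was the gene added in both (0.62 in the WT, adjusted p = 0.00233, and 0.45 in the KO, adjusted p = 0.0150, in limma), and Ticam1 reached 1.10 in the KO (adjusted p = 0.000116 in limma). Without the untreated library of WT animal A, a fit chosen after seeing the data, the same 5 genes were called in the WT (14.9% of all genes) and these and Irak3 in the KO (0.19, adjusted p = 0.0192 in limma, 27.9% of all genes). Tlr4 was then at 0.04 in the WT and at -0.00 in the KO, with a 95% confidence interval of -0.11 to 0.10 in the KO. Without both the block and that library, Tlr2, Cd14 and Irak2 were called in the WT (3.94% of all genes) and Tlr2, Cd14, Ticam1 and Irak2 in the KO (5.87%). In both fits without that library the WT group holds 1 untreated library, which was assumed to vary as the other groups do. Their WT calls rest on the untreated library of animal B alone.

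The stretches before the starts of 3 genes that rose with LPS, and of Traf6, are shown because these genes differed with LPS or, for Traf6, in the same direction in every animal with Dex. They are reference sequence from RefSeq (GRCm38.p6), and windows of 7 of the 10 genes were used here. The printed bases lie before both the RefSeq and the GENCODE start, 5′ to 3′ on the strand of the gene, and capitals mark a match to a motif searched on both strands.

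Tlr2, chr3:83841768-83841858, minus strand: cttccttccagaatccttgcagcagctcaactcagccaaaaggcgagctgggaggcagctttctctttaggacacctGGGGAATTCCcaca
Irak2, chr6:113638217-113638466, plus strand: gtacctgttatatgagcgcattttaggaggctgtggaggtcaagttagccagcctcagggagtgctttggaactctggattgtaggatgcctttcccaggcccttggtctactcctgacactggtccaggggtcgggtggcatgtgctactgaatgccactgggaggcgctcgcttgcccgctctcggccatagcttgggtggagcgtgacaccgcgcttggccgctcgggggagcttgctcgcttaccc
Ticam1, chr17:56276787-56277017, minus strand: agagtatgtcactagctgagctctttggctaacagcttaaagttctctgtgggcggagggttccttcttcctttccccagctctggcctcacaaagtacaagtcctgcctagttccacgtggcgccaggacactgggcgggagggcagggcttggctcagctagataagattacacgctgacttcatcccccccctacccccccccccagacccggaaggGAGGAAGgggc
Traf6, chr2:101678170-101678419, plus strand: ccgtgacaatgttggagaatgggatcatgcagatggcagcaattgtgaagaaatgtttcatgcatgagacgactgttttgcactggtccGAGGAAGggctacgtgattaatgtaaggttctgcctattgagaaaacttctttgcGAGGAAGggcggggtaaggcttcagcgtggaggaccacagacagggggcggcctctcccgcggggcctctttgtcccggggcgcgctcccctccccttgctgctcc

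Each motif was searched in the 250 bases before the RefSeq start. The NF-kB motif GGGNNNTTCC matched in Tlr2 at -173 to -164 from the RefSeq start and in 4.65% of the 32851 windows of all genes. The PU.1 motif GAGGAAG matched at 2 places in Traf6 and at 1 in Ticam1, and in 10.6% of all windows. The interferon response motif GAAANNGAAA matched in Myd88 and in 2.98% of all windows. The AP-1 motif TGANTCA (6.75% of all windows) and the glucocorticoid receptor motif GNACANNNTGTNC (0.387%) matched in 0 of the 7 genes, and none of the 5 motifs matched in Irak2, Irak3 or Irak4. Only these windows were searched. Tlr4, Cd14 and Ly96 had no window in the search, so the counts say nothing about motifs before these genes.

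**Figure D3:**
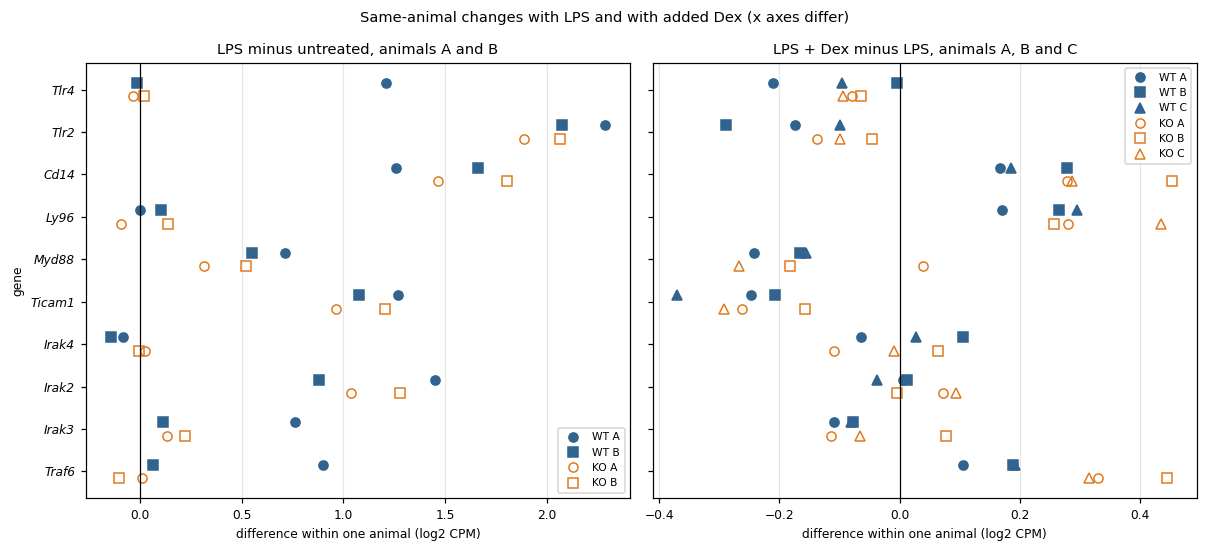
Differences within animals in log2 CPM (x axis) for each of the 10 genes (y axis), LPS minus untreated in the left panel and LPS + Dex minus LPS in the right panel, with filled points for WT and open points for KO animals. Cd14, Ly96 and Traf6 lie right of 0 and Tlr4, Tlr2 and Ticam1 left of 0 in 6 of 6 animals with added Dex, and all Dex differences lie within -0.37 and 0.45.

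The second comparison asked how added Dex changed these genes in LPS-treated cells. It shares its LPS libraries with the first, so the LPS and Dex differences are not independent. Over the groups, 0 of the 10 genes were called in the WT (0.749% of all genes) or the KO (0.895%) in limma, also with voom in limma on recovered reads. At an unadjusted p under 0.05 they were 0 in the WT and 3 in the KO, Cd14, Ly96 and Traf6, beside 332 and 372 of all 9614 genes. With the animal as a block over the 16 libraries 0 of 10 were called again (2.19% of all genes in the WT and 2.57% in the KO), with 4 of 10 in each genotype at an unadjusted p under 0.05 beside 655 and 743 of all genes.

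Within animals the differences were small, and for several genes of the same sign in every animal. Cd14 was at 10.95, 10.99 and 10.97 with LPS + Dex in WT animals A, B and C and at 10.98, 11.11 and 11.04 in KO animals. Every one of these values exceeded every LPS value of either genotype, and 5.97% of all genes in the WT and 9.67% in the KO did not overlap between LPS and LPS + Dex. The same-animal differences ranged from 0.17 to 0.45, and the mean difference was 0.21 in the WT (95% confidence interval -0.07 to 0.49) and 0.34 in the KO (0.06 to 0.62).

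Ly96 was at 3.73, 4.01 and 4.07 in the WT and 3.74, 3.98 and 4.04 in the KO with LPS + Dex. It was higher than with LPS in 6 of 6 animals, by 0.17 to 0.44. Traf6 was at 5.40, 5.11 and 5.19 in the WT and at 5.40, 5.27 and 5.34 in the KO. It too was higher in 6 of 6 animals, by 0.33, 0.44 and 0.32 in the KO and by 0.10, 0.19 and 0.19 in the WT. The genotype difference in this response was not called, as given below.

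Ticam1 lay lower with LPS + Dex, at 5.68, 6.14 and 5.76 in the WT and 5.59, 6.15 and 5.42 in the KO, lower in 6 of 6 animals by 0.16 to 0.37. Tlr2 was at 9.93, 9.60 and 9.80 in the WT and 9.94, 10.10 and 9.99 in the KO, lower in 6 of 6 animals by 0.05 to 0.29. For both genes the LPS and LPS + Dex groups overlapped. Myd88 was at 5.46, 6.06 and 5.73 in the WT and 5.68, 5.99 and 5.52 in the KO, lower in 5 of 6 animals.

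Tlr4 was at 6.33, 6.59 and 6.12 in the WT and 6.36, 6.57 and 5.99 in the KO, lower in 6 of 6 animals by at most 0.21. Irak3, at 7.90, 8.07 and 8.26 in the WT and 8.45, 8.32 and 8.46 in the KO, was lower in 5 of 6. Irak2 (-0.04 to 0.09 within animals) and Irak4 (-0.11 to 0.11) differed in no shared direction. In all, 6 of the 10 genes moved the same way in 6 of 6 animals, as did 19.6% of all genes.

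The untreated libraries do not enter a difference between LPS + Dex and LPS, so the block was also fitted in the 12 LPS and LPS + Dex libraries alone, which was chosen after seeing the data. In that fit 6 of the 10 genes were called in the WT beside 10.4% of all genes. Cd14 (0.21, SE 0.044, adjusted p = 0.00653), Ly96 (0.24, SE 0.063, adjusted p = 0.0244) and Traf6 (0.16, SE 0.045, adjusted p = 0.0380) rose in limma. Ticam1 (-0.27, SE 0.044, adjusted p = 0.000792), Tlr2 (-0.19, SE 0.040, adjusted p = 0.00767) and Myd88 (-0.19, SE 0.053, adjusted p = 0.0391) fell in limma. In the KO 4 of 10 were called beside 14.1% of all genes. Traf6 (0.36, SE 0.045, adjusted p = 8.93e-05), Cd14 (0.34, SE 0.044, adjusted p = 0.000130) and Ly96 (0.32, SE 0.063, adjusted p = 0.00311) rose and Ticam1 (-0.24, SE 0.044, adjusted p = 0.00215) fell, all in limma. In fold terms the largest of these, Traf6 in the KO, was 1.29-fold. Tlr4 was not called in either genotype (-0.10, adjusted p = 0.170, and -0.08, adjusted p = 0.257, in limma), nor were Irak4, Irak2 and Irak3.

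The third comparison asked whether loss of NELF-B changed these genes. In limma, 0 of the 10 were called in untreated cells (0.0104% of all genes), with LPS (0.146%) or with LPS + Dex (0.114%), and voom in limma on recovered reads also called 0. At an unadjusted p under 0.05 they were 2 (Tlr2 and Irak3), 1 (Irak4) and 1 (Tlr2), beside 1464, 665 and 762 of all 9614 genes. Without the untreated library of WT animal A, untreated cells had 0 of 10 called (0.00% of all genes) and 0 at an unadjusted p under 0.05.

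Several differences in untreated cells moved when that library was left out. For Irak3 the KO minus WT difference was 0.58 (SE 0.23, adjusted p = 0.324 in limma) with it and 0.19 (SE 0.21, adjusted p = 0.980 in limma) without it. For Tlr4 the same 2 values were 0.57 and -0.07, and for Traf6 0.37 and 0.14. Tlr2 kept its value, 0.31 in both (SE 0.13, adjusted p = 0.324 in limma, with that library). The values without it rest on 1 untreated WT library. For Tlr2 the untreated KO libraries (8.19 and 8.07) lay above the WT ones (7.82 and 7.82). The same was so for Traf6 (5.06 and 4.93 against 4.39 and 4.86), where 29.4% of all genes did not overlap. Where the untreated library of WT animal B was left out instead, 5 of the 10 genes were called beside 4859 of 9614 genes.

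Irak4 showed the most even difference between genotypes. With LPS it was at 5.52, 5.40 and 5.53 in WT animals A, B and C and at 5.76, 5.60 and 5.81 in KO animals, and with LPS + Dex at 5.46, 5.51 and 5.56 against 5.65, 5.67 and 5.80. The genotypes did not overlap in either treatment, as was so for 13.7% and 17.8% of all genes. With LPS + Dex, Tlr2 and Irak3 also lay higher in the KO without overlap. The Irak4 difference was 0.24 with LPS (SE 0.090, 1.18-fold, adjusted p = 0.475 in limma) and 0.19 with LPS + Dex (SE 0.090, 1.14-fold, adjusted p = 0.636 in limma). The letters match WT and KO animals only loosely, by a string that some labels of both animals B share. Labels of both animals C hold an S with a number, which is not shared between them, and A is the remaining pair. Between animals of the same letter and treatment Irak4 was higher in the KO in 8 of 8 pairs, by 0.06 to 0.27, and 16.3% of all genes kept 1 sign in all 8. These pairs come from 3 WT and 3 KO animals.

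Irak3 was higher in the KO in 7 of 8 such pairs and Tlr2 in 7 of 8, while Ly96 was lower in 7 of 8 by at most 0.17 (median -0.03). How many of all genes reach 7 of 8 was not counted, so these are descriptions. With the letter as a block in the 6 libraries of a treatment, chosen after seeing the data, 0 of 10 genes were called with LPS (0.125% of all genes) and 0 with LPS + Dex (0.614%) in limma. At an unadjusted p under 0.05 they were Irak4 and Irak3 in both, 2 of 10 beside 1834 and 2292 of all 9614 genes. For Tlr4 with LPS the difference was -0.07 with a 95% confidence interval of -0.66 to 0.52 without a block. With the letter as a block over the 16 libraries it was -0.48 to 0.35, and in the 6 libraries -0.23 to 0.10.

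**Figure D4:**
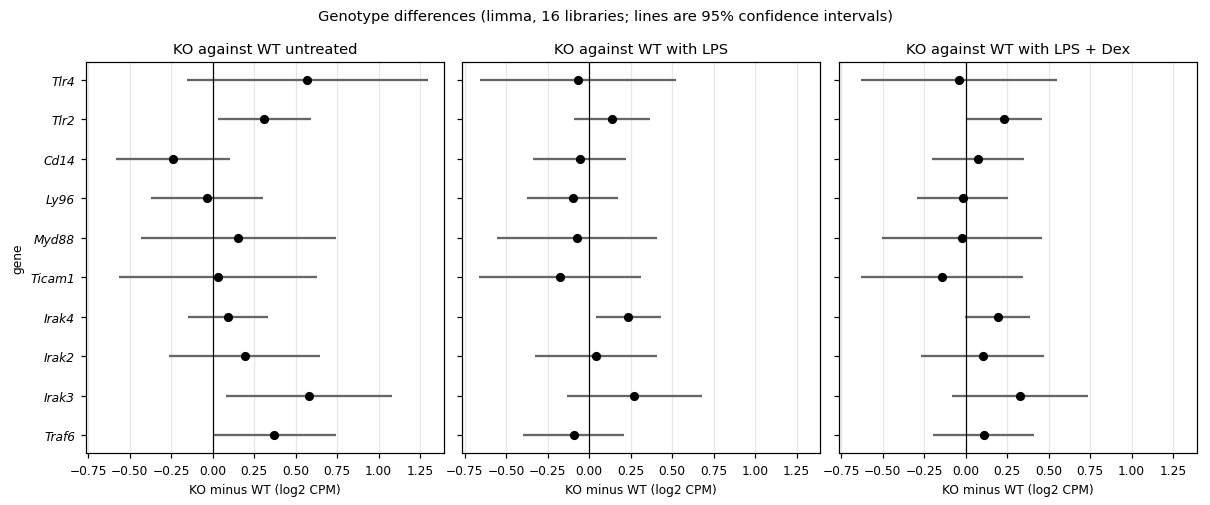
KO minus WT difference in log2 CPM (x axis) of each of the 10 genes (y axis) in untreated, LPS and LPS + Dex cells, with points at the limma estimate and lines over the 95% confidence interval. Untreated intervals are wide for Tlr4 (-0.15 to 1.29), and the Irak4 interval with LPS runs from 0.04 to 0.43.

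Whether the responses themselves differed between genotypes was tested as an interaction. For the LPS response, 0 of 10 genes were called (0.00% of all genes in limma, with 221 of 9614 at an unadjusted p under 0.05), and 0 without the untreated library of WT animal A (0.00%). With voom in limma 0 of 10 were called for either response. The largest estimates were those of Tlr4 (-0.64, SE 0.43) and Traf6 (-0.46, SE 0.22, adjusted p = 0.690 in limma), which became -0.00 and -0.23 without that library. Tlr2 differed by -0.18 (95% confidence interval -0.54 to 0.19) and Cd14 by 0.18 (-0.26 to 0.63). For the Dex response, 0 of 10 genes were called (0.00% of all genes in limma, with 0 of 9614 at an unadjusted p under 0.05). Unchanged genes alone would give a share of about 0.05 there, so this fit cannot tell whether the Dex responses differed. The 221 genes of the LPS response lay below that share as well. With the animal as a block in the 12 libraries, 0 of 10 were called beside 1 of 9614 genes, with 669 of all genes at an unadjusted p under 0.05. Traf6 had the largest estimate, 0.20 (SE 0.20), and in the fit of 12 libraries with the animal as a block it had an unadjusted p = 0.00819 and an adjusted p = 0.536 in limma.

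Other genes of the pathway were taken from a list of 47, of which 43 are in the table. With LPS in the WT, 3 rose and 1 fell, beside 6.91% of all genes called. Tnfaip3, which encodes the deubiquitinase A20 that shuts off TRAF6 signalling, rose by 5.25 (SE 0.19, adjusted p = 1.03e-09 in limma), Peli1, a ubiquitin ligase of the pathway, by 1.93 (SE 0.28, adjusted p = 0.000578 in limma) and Tank, a TRAF-binding scaffold, by 1.04 (SE 0.23, adjusted p = 0.0134 in limma). Tab1, a partner of the kinase TAK1, fell by 0.88 (SE 0.15, adjusted p = 0.00213 in limma). In the KO, 2 rose and 0 fell, beside 4.01% of all genes called. They were Tnfaip3 (5.32) and Peli1 (1.52, adjusted p = 0.00449 in limma). The same-animal difference of Tank was 1.53 in WT animal A and 0.37 to 0.54 in the other 3 animals, and that of Tab1 -1.27 in WT animal A and -0.31 to -0.48 in the others. Without the untreated library of WT animal A, Tnfaip3, Peli1 and Tab1 were called in the same direction in both genotypes and Tank was not called in the WT. None of the other Toll-like receptor genes of the list passed the test with LPS over the groups. With the animal as a block and without that library, a fit added once the data had been seen, 5 of the 43 genes rose and 3 fell in the WT, and 12 rose and 7 fell in the KO, beside the 14.9% and 27.9% of all genes given above. The 43 genes had a median difference of 0.28 (WT) and 0.01 (KO). Without the untreated library of WT animal A the WT median was -0.05, and every WT value given without that library rests on 1 untreated library.

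With Dex, 0 of the 43 genes were called over the groups in the WT (0.749% of all genes) or the KO (0.895%). At an unadjusted p under 0.05 there were 2 in each, beside 332 and 372 of all genes. With the animal as a block over 16 libraries, 1 gene was called in each (2.19% of all genes in the WT and 2.57% in the KO). This was Ticam2, which encodes TRAM, the adaptor that links TLR4 to TRIF. It fell by 0.57 in the WT (adjusted p = 0.0125 in limma) and by 0.61 in the KO (adjusted p = 0.00747 in limma), and was lower in 6 of 6 animals. In the fit of 12 libraries, 5 rose and 4 fell in the WT (10.4% of all genes called) and 4 rose and 5 fell in the KO (14.1%). These are named after their values were seen. The endosomal receptor genes Tlr7 (0.40 in the WT and 0.48 in the KO), Tlr8 (0.40 and 0.53) and Tlr13 (0.31 and 0.32) and the kinase gene Map3k8 (0.24 and 0.22) rose in both. Ticam2, Peli1 (-0.46 in both), Cd180 (-0.31 and -0.41), a homologue of TLR4, and Traf3 (-0.25 and -0.17), which relays TRIF signals, fell in both. Tirap, which encodes the adaptor that brings MyD88 to the membrane, rose in the WT (0.29), and Tlr1, whose product pairs with TLR2, fell in the KO (-0.14). Between genotypes 0 of the 43 genes were called in untreated cells (0.0104% of all genes), with LPS (0.146%) or with LPS + Dex (0.114%) in limma. At an unadjusted p under 0.05 they were 9, 2 and 3 in that order, beside 1464, 665 and 762 of all genes.

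The genes whose levels followed each of the 10 most closely were found by Pearson's r of log2 CPM over the 16 libraries, which share treatments and animals, so r is a description. Tlr2 was followed most closely by Dnajb4 (r = 0.996), Tnfsf9 (0.992) and Cxcl10 (0.992), Cd14 by Plk2 (0.979), Sdc4 (0.979) and Dusp1 (0.975), and Irak2 by Gm6377 (0.988), Kdm6b (0.981) and Zc3h12c (0.979). For Ticam1 they were Reps1 (0.970), D8Ertd82e (0.959) and Nfkb2 (0.957), and for Myd88 Rnf145 (0.945), Mir17hg (0.941) and Mapk8 (0.940). For Tlr4, where the untreated library of WT animal A lay far below the rest, they were Fam208a (0.973), Vps35 (0.972) and RP24-439I22.1 (0.971), for Irak3 Ms4a14 (0.959), Nsmaf (0.953) and Agrn (0.950), and for Traf6 Nedd9 (0.962), Slc25a30 (0.932) and Pag1 (0.932). The untreated library of WT animal A was also the lowest for Myd88, Ticam1, Irak2, Irak3 and Traf6. Irak3, for example, was at 7.25 there against 7.90 to 8.56 in the other 15 libraries. The r values of these genes may thus rest in part on that library too. Irak4 was followed by Btd (0.957), Fam105a (0.912) and Zfyve27 (0.906). Ly96 had the least close neighbours, Hspa14 (0.912), Kcnk6 (0.863) and Fam72a (0.861).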

How the data were processed

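RNA-seq was analysed for 16 libraries of BMDM. The authors mapped paired reads to mm10 with CLC Bio Genomic Workbench (the version is not given in the sources used here), took reads unique to the exons of a gene, scaled the libraries with the weighted trimmed mean of edgeR and deposited log2 CPM for 9614 genes. Strand and the filter on genes are not given in the sources used here. The deposited table also holds 18 columns of the authors' p-values and FDR values, which were not used. CASAVA 1.8 and FastQC are named in the submitters' processing notes.

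Groups and animal numbers came from the labels. Nothing was added to the deposited log2 values. All 16 libraries were fitted with 1 mean per group by lmFit and eBayes with a variance trend in limma 3.58.1 (R 4.3.3), two-sided, with Benjamini-Hochberg adjustment over all genes. The study's thresholds differ between comparisons, so an adjusted p under 0.05 with no fold minimum was used throughout. The fit without a block was first tested on simulated counts of independent libraries, with no animal effect and no library that stood apart. That test does not bear on the fits with a block or on the untreated library of WT animal A. Several libraries come from each animal, so the fit without a block does not treat animals as the unit. Animal numbers in the labels pair the samples. Deviations of same-animal LPS and LPS + Dex libraries from their group means correlated across genes at 0.885 to 0.939 (WT) and 0.781 to 0.902 (KO). Those of untreated and LPS libraries correlated at 0.185 to 0.822, and with 2 untreated libraries per genotype they say little about the pairing. Alternatives were the animal or letter as a block, only the groups compared, log2(CPM + 1), a filter on mean log2 CPM above 1, median centring, voom on recovered reads, the study's thresholds, animals A and B only and leaving out each library.

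Reads were recovered from equal steps of the CPM values, where 100% of values under 3 CPM came out whole within 0.1 read. A count of 3 reads corresponds to 0.0653 to 0.136 CPM, and all 10 genes lay far above it. Positions and exon lengths are from GENCODE vM21 (GRCm38, the assembly of mm10), with lengths for 95.6% of the genes, and promoter sequences from RefSeq (GRCm38.p6). Other values were computed with Python 3.11.15, numpy 2.4.6 and pandas 2.3.3, and figures drawn with matplotlib. The members, gene lists and tests were chosen with earlier results of these data known. The named genes are all 10 members, Nelfb, the pathway genes called in the Dex and genotype comparisons (up to 6 each; those from the fit of 12 libraries were named in full, outside this rule and after their values were seen), the 6 pathway genes with the largest LPS difference among those called, and the 3 genes closest in r to each member.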

Additional observations from a re-analysis of the deposited data

How the results depend on the processing

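With the replicate block (the animal), 5 of the 10 genes were called with LPS in the KO in place of 3, and the block over 16 libraries changed the call of Myd88 in both genotypes and of Ticam1 in the KO. It changed no other call of the 10 genes. In the LPS comparison of the WT, 2 were called when only the groups compared were fitted. Leaving out each library in turn gave 3 to 8 called genes for LPS in the WT, 0 to 5 for KO against WT untreated and 0 to 3 for the genotype difference in LPS response, the highest each time without the untreated library of WT animal B, which leaves that of animal A alone. For LPS in the KO the range was 2 to 4, beside 235 to 564 of all 9614 genes. The ranges over all genes for the other 3 comparisons are given below and reach 5390, 4859 and 3734 genes in that order. The highest counts of the 10 genes can therefore not be read as particular to these genes. In the blocks chosen after seeing the data, without the untreated library of WT animal A, 6 genes were called for LPS in the KO, 5 for Dex in the WT and 4 for Dex in the KO, and in the 12 LPS and LPS + Dex libraries 6 and 4 for Dex. The cause was not tested. Over single genes, 2127 of 2260 values under an alternative kept their direction and their side of the threshold, 42 newly passed it and 6 no longer did. The other 85 changed sign without a call under either setting, and 0 called values changed sign.

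Over all genes, the counts called were 664 for LPS in the WT (139 with only the groups compared, 282 with animals A and B, 1326 with the block), 386 in the KO (256 with animals A and B, 704 with the block), 72 for Dex in the WT (37, 10 and 211 in that order of settings) and 86 for Dex in the KO (131, 16 and 247). In the block chosen after seeing the data and without the untreated library of WT animal A, they were 1429 and 2687 for LPS, 925 and 1249 for Dex and 18 for the genotype difference in LPS response, and in the 12 libraries 1002 and 1355 for Dex. For KO against WT they were 14 with LPS and 11 with LPS + Dex (0 and 0 with only the groups compared, 105 and 170 with the letter block). Leaving out 1 library gave 379 to 5390 for LPS in the WT, 0 to 4859 for KO against WT untreated and 0 to 3734 for the genotype difference in LPS response. Median centring moved the LPS differences by -0.07 in the WT and -0.06 in the KO. Groups of 2 or 3 libraries and 1 time point limit what could be detected, so a gene that was not called may still have changed within its interval.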
